A study of Homo sapiens with 5 samples.

Results

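RNAs recovered with the RNA-binding protein PSF from LTAD cells were compared with the RNAs of the input lysates, using all 5 libraries of the series: 3 PSF-RIP libraries (RNA immunoprecipitation followed by sequencing) and 2 inputs. LTAD is a human prostate cancer cell line, here kept in phenol-red-free medium with charcoal-stripped serum, which lacks androgens. The vehicle PSF-RIP library came from cells given DMSO, and No.10-3 PSF-RIP libraries 1 and 2 came from cells given 5 µM No.10-3, a small molecule known here by its code name. Of the 2 inputs, 1 is labelled vehicle and 1 No.10-3, but the column names of the deposited table do not tell them apart. They were therefore taken as 1 group and are called input A and input B. The comparison is PSF-RIP (n = 3) against input (n = 2) over both treatments, with each PSF-RIP library also shown by itself. For No.10-3 PSF-RIP the 2 column names give the compound and not the antibody, so they were assigned by elimination. Of the 25702 genes in the table, 13321 averaged 1 CPM or more over the 5 libraries and were analysed, where CPM is a gene's count divided by its library's total and put on a common scale. No control immunoprecipitation is among these samples, so RNA held by PSF cannot be told apart from RNA held by the beads or the antibody. The labels do not say whether libraries came from separate cultures, so the spread between these libraries may be technical. The p-values measure that spread, estimated in large part over many genes and not from each gene alone. Treatment was not in the fit, so that spread also holds any difference between vehicle and No.10-3 libraries.

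PSF, encoded by SFPQ, is a mainly nuclear protein of the DBHS family, which it forms with NONO and PSPC1. It binds RNA and DNA and takes part in splicing, transcription and DNA repair, and it is a core protein of paraspeckles, nuclear bodies assembled on the long noncoding RNA NEAT1. In prostate cancer cells it is known as a partner of the antisense RNA CTBP1-AS and as a regulator of RNAs that encode splicing factors.

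The protein-coding RNAs that stood lowest against input included many mRNAs of the translation machinery, and such mRNAs are known to begin with a C followed by a run of pyrimidines, the TOP (terminal oligopyrimidine) element. The stretches below are shown for that reason. Each is 30 bases on the gene's strand, 15 before and 15 from the RefSeq start on GRCh38.p14, with capitals for an unbroken pyrimidine run that opens at the start with C and has at least 4 further pyrimidines. The first 6 belong to mRNAs lower in PSF-RIP and the next 4 to mRNAs higher in PSF-RIP. EEF1A1 and EEF2, which encode translation elongation factors, were added after their values were seen.
TPT1, chr13:45341169-45341198, minus strand: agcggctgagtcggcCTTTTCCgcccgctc
RPL39, chrX:119791616-119791645, minus strand: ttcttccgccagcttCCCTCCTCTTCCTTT
RPS13, chr11:17077653-17077682, minus strand: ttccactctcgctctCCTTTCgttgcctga
RPL26, chr17:8383179-8383208, minus strand: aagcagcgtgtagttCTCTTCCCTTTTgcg
RPS12, chr6:132814554-132814583, plus strand: gcgtgcggatgaggcCTCTTTCCCTgccgc
RPS29, chr14:49598696-49598725, minus strand: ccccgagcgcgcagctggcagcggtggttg
MIB2, chr1:1615485-1615514, plus strand: gggccctgggctcccgcccttcgggtccca
TCIRG1, chr11:68039010-68039039, plus strand: gagtgagcggcgcctagtcccgggctggcg
EML3, chr11:62612761-62612790, minus strand: cgccccccctcccgcgcttcctggcggctc
PRPF6, chr20:63981117-63981146, plus strand: cgcgggtgacgcgacgacggcgacactttg
EEF1A1, chr6:73521018-73521047, minus strand: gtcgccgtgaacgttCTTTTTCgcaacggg
EEF2, chr19:3985449-3985478, minus strand: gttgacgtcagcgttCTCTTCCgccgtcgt
The run was 7 bases long in TPT1, at least 15 in RPL39, where it fills the stretch shown, 6 in RPS13, 12 in RPL26 and 10 in RPS12, and these letters did not open the windows of RPS29 or of the 4 higher mRNAs. EEF1A1 and EEF2 both carry a run of 7 bases, and of these EEF1A1 was called lower in PSF-RIP (log2 fold change -1.6) while EEF2 was not called (0.57).

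The libraries held 1519362 to 4010376 counts over genes, with 13631 to 15699 genes above 0. Outside small structured and mitochondrial RNAs the inputs held fewer counts, 519318 and 703908 against 1164109 to 2927235 in PSF-RIP, so the median gene tested had 16 and 23 counts in the inputs and 38 to 105 in PSF-RIP. Between libraries of a group, 7.54% of genes averaging 10 CPM or more lay 2-fold or more apart in the inputs, 5.94% between the vehicle and first No.10-3 PSF-RIP libraries, and 13.9% and 17.2% between the second No.10-3 PSF-RIP library and those others. Levels are given below as scaled CPM, that is CPM after edgeR's TMM factors, which set the bulk of genes level across libraries. These factors were 0.365 and 0.388 in the inputs and 1.78 to 2.06 in PSF-RIP. On that scale the median gene differed by 0.08 (log2) between PSF-RIP and input, whereas on total counts alone it was 2.42 higher in PSF-RIP. "Higher" and "lower" therefore mean relative to the typical gene, and an RNA can be lower in this sense while taking a larger share of all counts.

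The inputs were mostly small structured RNA and mitochondrial RNA, and the PSF-RIP libraries were mostly mRNA. Nuclear protein-coding genes took 16.4% and 15.9% of counts in inputs A and B, 76.1% in the vehicle PSF-RIP library, and 73.6% and 82.1% in No.10-3 PSF-RIP libraries 1 and 2. Their mean share was 16.2% ± 0.356 (SD, n = 2) in input and 77.3% ± 4.38 (SD, n = 3) in PSF-RIP, a ratio of 4.78. Long noncoding RNA moved the same way, from 0.766% and 0.620% in the inputs to 1.98%, 1.81% and 3.60% in PSF-RIP, and so did transcribed pseudogenes, from 0.161% and 0.135% to 0.818%, 0.631% and 0.593%. Small structured RNA as a whole went the other way, with 56.2% and 58.7% in the inputs against 13.6%, 11.2% and 3.60% in PSF-RIP, 6.06 times less on average. Mitochondrially encoded RNA stood at 26.3% and 24.4% in the inputs and at 6.91%, 12.2% and 9.49% in PSF-RIP.

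For each of these classes the 3 PSF-RIP libraries and the 2 inputs did not overlap. An exact two-sided permutation test of 3 against 2 libraries gave p = 0.1 for each, the smallest value it can give. Counting error was small beside these differences, since the 95% Wilson interval of any class share was at most 0.0701 percentage points to either side, which covers counting error only. The second No.10-3 PSF-RIP library held the least small structured RNA and the most long noncoding RNA. Much of the latter was 1 gene, MALAT1, with 22566 of the 35955 CPM of long noncoding RNA in that library. In the vehicle and first No.10-3 PSF-RIP libraries MALAT1 held 9020.2 of 19767 and 6615 of 18066 CPM.

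**Figure D1:**
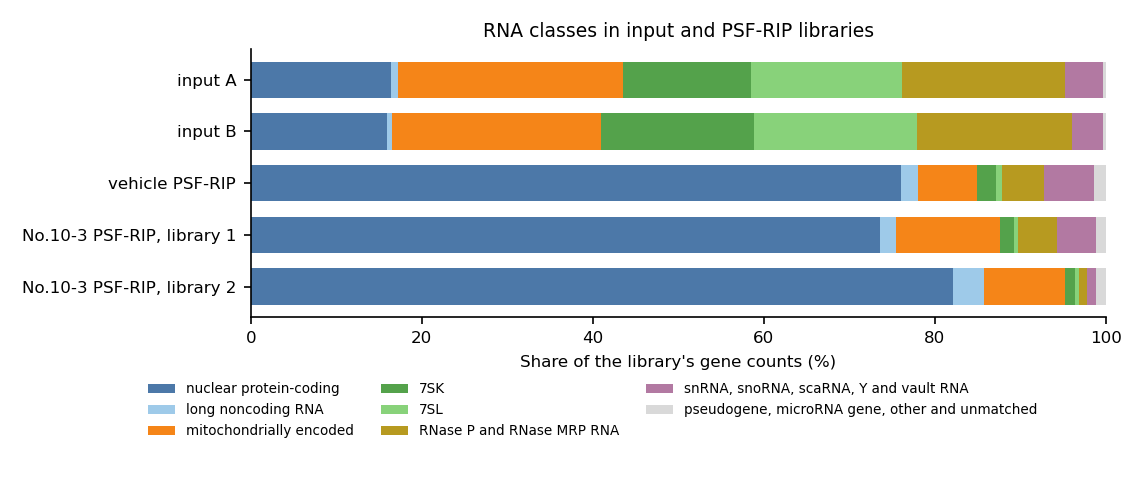
Share of each library's gene counts (percent, horizontal axis from 0 to 100) taken by 8 groups of RNA classes, 1 bar per library. Protein-coding RNA fills 15.9% and 16.4% of the inputs and 73.6% to 82.1% of the PSF-RIP libraries, where the bars of 7SK, 7SL, RNase P and RNase MRP RNA shrink.

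Across genes, the edgeR quasi-likelihood test with Benjamini-Hochberg adjustment at 0.05 called 1337 genes higher (10.0% of those tested) and 1385 lower (10.4%) in PSF-RIP. In 1334 of the higher and 1380 of the lower calls, all PSF-RIP libraries lay on the same side of both inputs. All 3 PSF-RIP libraries were at least 2-fold above both inputs for 573 genes (4.30%) and at least 2-fold below for 638 (4.79%). Of the higher calls, 1314 were nuclear protein-coding genes, 11.1% of the 11806 tested, and 1130 protein-coding genes were lower (9.57%). Among the tested genes, 119 had no count in either input, and 15 of these were called. The counts moved with single libraries: without input A 358 genes were called higher and 807 lower, and without input B 88 and 528. Without the vehicle PSF-RIP library, No.10-3 library 1 or No.10-3 library 2, the counts were 638, 656 and 2423 higher and 869, 845 and 2431 lower. The split of calls was near even on the TMM scale (49.1% higher), and on total counts alone 11611 genes were called higher and 49 lower.

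**Figure D2:**
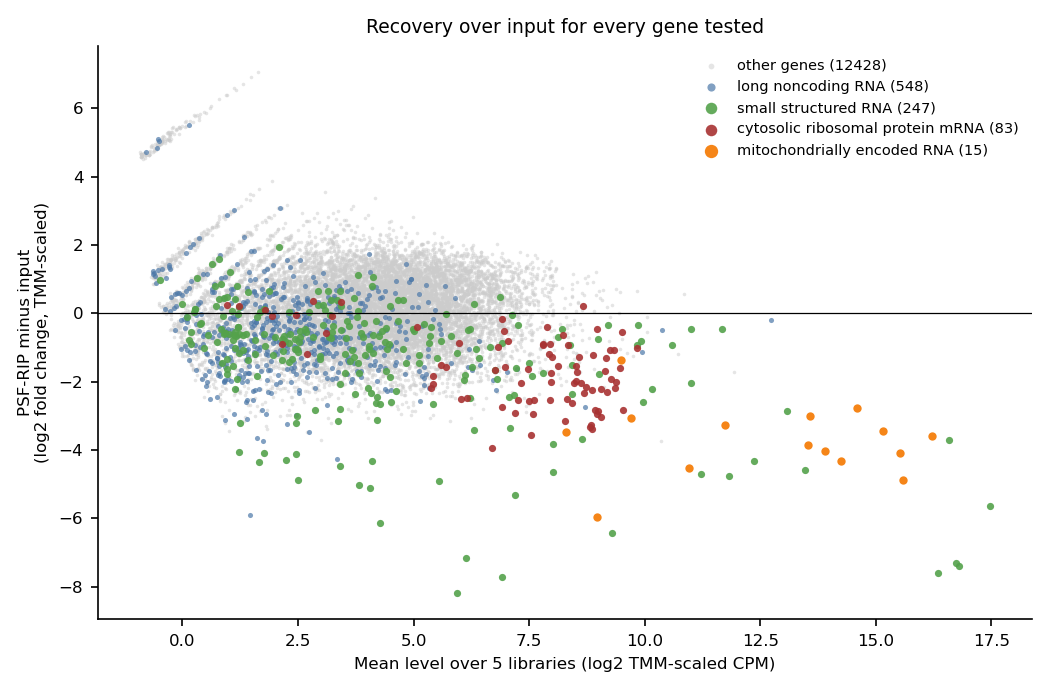
Log2 fold change of PSF-RIP over input (vertical axis, TMM-scaled) against mean level over the 5 libraries (horizontal axis, log2 scaled CPM) for the 13321 genes tested, 1 point per gene, coloured by class. Mitochondrial RNAs and many small structured and ribosomal protein RNAs lie below 0 on this scale, and the band at upper left holds genes with no count in either input, whose fitted values are no bounds.

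The abundant cytoplasmic and nuclear RNAs made by RNA polymerase III were among the RNAs furthest below input. RN7SL1 and RN7SL2 encode 7SL, the RNA of the signal recognition particle, which guides secretory mRNAs to the endoplasmic reticulum. RN7SL1 stood at 261660 and 306800 scaled CPM in inputs A and B and at 1965, 1571 and 1576 in the vehicle and both No.10-3 PSF-RIP libraries, a log2 fold change of -7.38 (SE 0.69, edgeR adjusted p = 6.6e-08). All PSF-RIP libraries were far below both inputs and close to each other. RN7SL2 gave -7.60, and the 2 copies are nearly identical, so the division of reads between them is uncertain. As a share of all counts, 7SL took 17.7% and 19.1% of the inputs and 0.616%, 0.462% and 0.512% of the PSF-RIP libraries, 34.7 times less on average. RPPH1, the RNA of the tRNA-processing enzyme RNase P, was lower to a similar extent (-7.30). RN7SK, the 7SK RNA that holds the elongation factor P-TEFb inactive in the nucleus, stood at 386920 and 487750 scaled CPM in the inputs and at 11586, 9133 and 5534 in PSF-RIP (-5.64, SE 0.68, adjusted p = 4.1e-06). RMRP, the RNA of RNase MRP, named after its values were seen, differed from the mean of the inputs by -3.23 and -3.17 (log2) in the vehicle and first No.10-3 libraries and by -6.13 in the second No.10-3 library.

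Y RNAs, which bind the Ro60 protein, and vault RNAs, parts of a large cytoplasmic particle, were called lower in 7 of 7 genes tested, with a median log2 fold change of -6.44 against 0.08 for all genes. RNY5 had 516 and 301 counts in the inputs and 6, 2 and 12 in PSF-RIP, which gave 332 and 267 scaled CPM against 1.43, 0.739 and 1.73 (log2 fold change -7.71). VTRNA1-2 had 312 and 164 counts in the inputs and 4, 2 and 11 in PSF-RIP (-7.15). RNY4 had 230 and 175 counts against 1, 0 and 6. All 3 RNAs were far above the PSF-RIP libraries in both inputs, and with so few PSF-RIP counts their levels there carry large counting error. The direction of 7SL, 7SK, RNase P, RNase MRP, Y and vault RNAs held on total counts alone.

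Nuclear small RNAs that guide RNA modification differed between PSF-RIP libraries as much as from input. H/ACA box snoRNAs guide pseudouridylation, C/D box snoRNAs guide methylation of the ribose, and scaRNAs do both for spliceosomal RNAs in Cajal bodies. Of 85 H/ACA snoRNAs tested, 24 were called lower (28.2%) and 0 higher. Of 115 C/D snoRNAs 15 were lower (13%) and 0 higher, and of 23 scaRNAs 15 lower (65.2%) and 0 higher. Of all genes, 10.4% were called lower and 10.0% higher, so the lower share of C/D snoRNAs was near that of all genes. Members above input at an unadjusted p under 0.05 were also 0 in each family, and DESeq2 called 12, 5 and 9 lower and 0 higher. The H/ACA median difference from input was -0.21 in the vehicle library, -0.66 in No.10-3 library 1 and -3.39 in No.10-3 library 2. For C/D snoRNAs the same medians were 0.21, -0.41 and -1.41, and for scaRNAs -0.97, -1.60 and -3.93. Their shares of all counts overlapped between PSF-RIP and input. H/ACA snoRNAs took 0.647% and 0.731% of the inputs and 1.81%, 1.12% and 0.0965% of the PSF-RIP libraries. C/D snoRNAs took 1.18% of input A and 0.357% of input B, and 1.23%, 0.578% and 0.163% of the PSF-RIP libraries. For C/D snoRNAs the inputs thus differed from each other as well. On total counts alone 39 H/ACA snoRNAs were called higher and 5 lower, so the direction of this family depends on the scale. The same test called 68 C/D snoRNAs higher and 2 lower. Lower calls without each library in turn ranged from 18 to 38 for H/ACA snoRNAs and from 12 to 21 for C/D snoRNAs, and both highest counts came without the vehicle library, where these RNAs were most abundant. Without No.10-3 library 2, 4 H/ACA and 5 C/D snoRNAs were called higher, and in the other 4 such fits 0.

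Single members did stand apart in every library. SNORA81 measured 4728 and 6589 scaled CPM in the inputs and 404, 198 and 47.3 in PSF-RIP, a log2 fold change of -4.71 (adjusted p = 1.2e-05), and SNORA53 measured 549 and 677 against 20.2, 48.8 and 6.06 (-4.65). Both were lower in all 3 PSF-RIP libraries, and lowest in the second No.10-3 library. SCARNA8 had 35.4 and 44.4 scaled CPM in the inputs and 0.952, 0.739 and 1.44 in PSF-RIP, with 4, 2 and 10 counts there. Reads in a snoRNA can also come from the intron of its host gene, and the counting rule is not given in the sources used here.

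Spliceosomal snRNAs, the RNA cores of the splicing machinery, divided by kind. RNU4-2, a gene of U4 snRNA, stood at 25458 and 27924 scaled CPM in the inputs and at 1341, 1657 and 363 in PSF-RIP (log2 fold change -4.57, adjusted p = 1.3e-05). RNU4-1 was lower by as much (-4.75), and the minor spliceosome's RNU4ATAC and RNU6ATAC were lower too (-3.35 and -3.83). Reads may be split between RNU4-1 and RNU4-2, which are close copies. These were the 4 called of 10 listed snRNAs tested. In the whole snRNA class, 6 of 12 were called lower (50%, against 10.4% of all genes) and 0 higher. On total counts alone, 6 of the 10 listed snRNAs were called higher and 3 lower. The remaining 6 of the 10 listed, which include the U5 genes, were not called on the TMM scale. RNU5A-1, chosen after its values were seen, read 3865 and 3984 scaled CPM in the inputs and 3251, 4594 and 725 in PSF-RIP. The vehicle and first No.10-3 libraries thus held RNU5A-1 near its input level and the second No.10-3 library did not.

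All 15 mitochondrially encoded RNAs tested, which are made and kept inside the organelle, were called lower in PSF-RIP. Their median log2 fold change was -3.60, and -4.16, -3.16 and -3.68 in the vehicle and both No.10-3 libraries. COX3, a cytochrome c oxidase subunit, measured 118200 and 114690 scaled CPM in the inputs and 3012, 5078 and 3812 in PSF-RIP (-4.88, SE 0.59, adjusted p = 4.6e-06). For COX3, the lower input exceeded the highest PSF-RIP library by 4.50 (log2), and the libraries of each group lay close together. RNR2, the large mitochondrial ribosomal RNA, gave the largest difference of the class, with 1041 and 1386 scaled CPM against 16.4, 17.4 and 24.7 (-5.95). ND6, chosen after its values were seen and known as the mRNA read from the opposite strand, gave the smallest (-1.36). On total counts alone 11 of the 15 were still called lower and 1 higher.

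Cytosolic ribosomal protein mRNAs had the lowest median of the lists of nuclear protein-coding genes. Of 83 tested, 54 were called lower (65.1%, against 10.4% of all genes) and 0 higher, and the median log2 fold change was -1.65 against 0.08 for all genes. That median was -1.74 in the vehicle library, -1.58 in No.10-3 library 1 and -2.03 in No.10-3 library 2. RPL39 measured 261 and 212 scaled CPM in the inputs and 14.3, 22.2 and 10.5 in PSF-RIP (log2 fold change -3.94, SE 0.39, adjusted p = 2.2e-07). RPS13 read 406 and 414 against 29.0, 43.6 and 31.4 (-3.57), and RPL26 read 1009 and 1006 against 69.3, 98.6 and 122 (-3.38). For these 3 mRNAs the lower input exceeded the highest PSF-RIP library by 3.03 to 3.22 (log2), and libraries of 1 group differed far less. The 83 members ranged from -3.94 to 0.36. Leaving out each library in turn gave 39 to 56 lower calls and 0 higher, and DESeq2 gave 58 and 0. Relative to all counts the direction turned, since ribosomal protein mRNAs together held 15564 and 15432 CPM in the inputs and 25714, 25594 and 17495 in PSF-RIP, and on total counts alone 38 were called higher and 6 lower. Many ribosomal protein genes have processed pseudogenes, and how reads that map to several places were counted is not given in the sources used here.

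Other mRNAs of the translation machinery showed both directions, with more called lower than higher. TPT1, an abundant TOP mRNA that encodes the growth-related protein TCTP, measured 2629 and 3261 scaled CPM in the inputs and 187, 239 and 238 in PSF-RIP (log2 fold change -3.74, SE 0.43, adjusted p = 2.8e-06). EIF3E and EIF3H, subunits of the initiation factor that recruits mRNA to the small ribosomal subunit, were lower (-2.81 and -2.74), as was NACA, which shields nascent chains (-1.99). EIF3E stood at 179 and 194 scaled CPM in the inputs and at 20.7, 18.1 and 40.1 in PSF-RIP. EIF4G1, the scaffold of the cap-binding complex (1.5), and EIF3B (1.36) were higher, both named after their values were seen. In the list of 40 translation factors, 11 were called lower (27.5%, against 10.4% of all genes). Only these 2 were called higher (5%, against 10.0% of all genes). These counts fell to 6 or 7 lower without the vehicle library, No.10-3 library 1, input A or input B, and the higher calls were lost without either input.

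Lower recovery also touched mRNAs for mitochondrial proteins made in the nucleus. Of 73 respiratory chain mRNAs, 22 were called lower (30.1%) and 5 higher (6.85%). Of 78 mitochondrial ribosomal protein mRNAs, 13 were lower (16.7%) and 3 higher (3.85%). All genes gave 10.4% lower and 10.0% higher, so the higher shares of both lists were under that of all genes. ATP5F1E, a small subunit of the ATP synthase, measured 331 and 478 scaled CPM in the inputs and 94.3, 91.3 and 52.6 in PSF-RIP (log2 fold change -2.35, adjusted p = 2.2e-04). MRPL33 read 61.7 and 140 against 14.5, 19.95 and 21.8 (-2.42), with the inputs themselves more than 2-fold apart. The higher respiratory chain mRNAs included CYC1, NDUFV1, SDHA and UQCRC1 (1.41, 1.31, 1.12 and 1.08), named after their values were seen. Without input B, 4 respiratory chain and 6 mitochondrial ribosomal protein mRNAs were called lower and 0 higher, and without input A 21 and 8 lower and 0 higher.

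Calls among protein-coding genes moved with gene length, as the deposited table gives it. Of 653 tested genes up to 1000 bases long, 22.7% were called lower and 0.77% higher. Between 1000 and 2000 bases 12% were lower and 6.70% higher, between 2000 and 4000 bases 8.44% and 13%, and between 4000 and 8000 bases 7.71% and 13.9%. Genes over 8000 bases gave 6.06% lower and 9.24% higher. The median length was 2557.5 bases for genes called lower, 3540.5 for genes called higher and 3094 for all protein-coding genes tested. Ribosomal protein mRNAs are short, and without them 19% of the 595 genes up to 1000 bases were still called lower. With the trend of level on gene length removed from each library, 1174 genes were called higher and 1713 lower, and 49 of the 83 ribosomal protein mRNAs were lower. In that fit the medians of histone mRNAs and of H/ACA snoRNAs relative to all genes came near 0, at -0.09 and -0.01 in place of -0.91 and -1.11. For C/D snoRNAs, the median turned from -0.67 to 0.46. The trend was fitted on protein-coding genes alone, ribosomal protein genes included. For snoRNAs it was taken from the shortest of these, so it cannot tell whether snoRNA values depend on length.

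The start of the gene moved with the calls as well. A RefSeq promoter window was matched for 9764 protein-coding genes tested, and 540 of them (5.53%) opened with C and 4 pyrimidines on the gene's strand, against 4.04% of all 27305 windows in the table. Such a start was found for 103 of 943 genes called lower (10.9%) and 42 of 1077 called higher (3.90%). Among genes up to 1000 bases, 36 of 64 with this start were called lower (56.2%), against 95 of 488 with another start (19.5%). Between 2000 and 4000 bases the shares were closer, 10.8% and 8.06%. These counts by length include ribosomal protein genes, and the split by length was not made without them. Without ribosomal protein genes, 72 of 496 genes with this start were called lower (14.5%), and their median log2 fold change was -0.02. Of the 9224 genes with another start, ribosomal protein genes included, 9.11% were called lower, and the median was 0.14. Among the ribosomal protein genes, the median was -2.02 for 44 with this start and -1.39 for 24 without. A match describes letters at the annotated start and not the start used in these cells.

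Base composition near the start was a further feature along which genes differed. The share of G and C in the 300-base window, 250 before to 50 after the start, had a median of 69% in genes called higher, 63.7% in genes called lower and 65.7% in all matched genes. In the fifth of genes with the lowest share (up to 57.3%), 6.09% were called higher and 12.3% lower. In the fifth with the highest share (74% and more), 17.4% were higher and 5.75% lower. Length, start and base composition overlap between genes, and their separate parts were not tested.

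**Figure D3:**
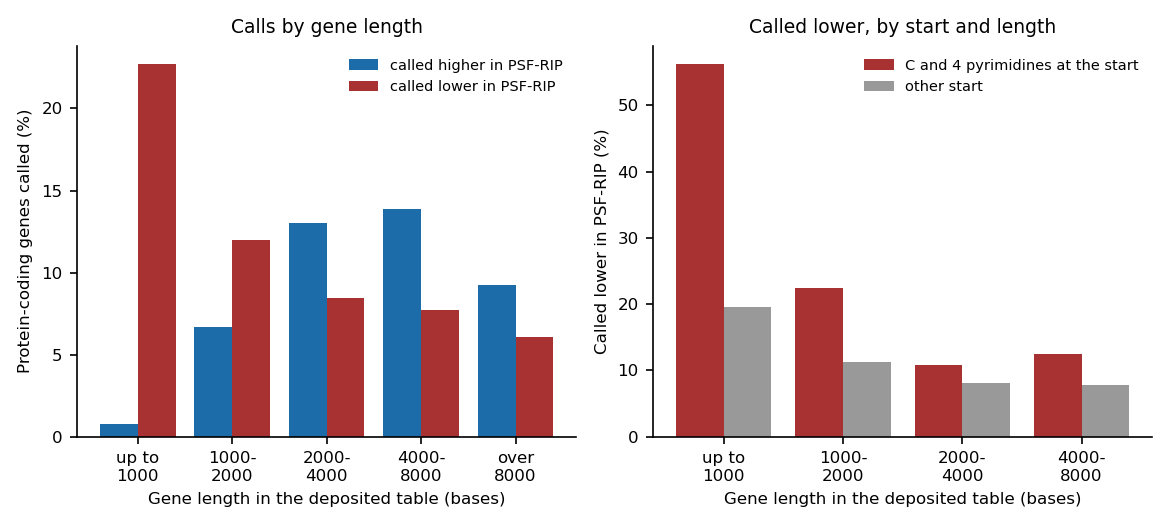
Left, share of tested protein-coding genes called higher or lower in PSF-RIP on the TMM scale (percent, bars from 0), by gene length in bases. Right, share called lower for genes whose annotated start opens with C and 4 pyrimidines and for genes with another start. Short genes show 22.7% lower and 0.77% higher calls, and the difference by start is widest among them, 56.2% against 19.5%. Both panels include ribosomal protein genes.

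Among called mRNAs averaging 10 CPM or more, those with the widest gap between the lowest PSF-RIP library and the higher input were of modest abundance. MIB2, an E3 ubiquitin ligase of the Notch pathway, measured 2.57 and 1.78 scaled CPM in the inputs and 21.9, 20.3 and 17.9 in PSF-RIP, a log2 fold change of 3.15 (SE 0.57, adjusted p = 6.8e-04). TCIRG1, a subunit of the proton pump of lysosomes, measured 1.93 and 2.66 against 22.6, 19.95 and 15.1 (3.07). SCRIB, a scaffold of epithelial polarity, measured 5.15 and 5.33 against 41.9, 28.4 and 30.1 (2.67). For each of these, the 3 PSF-RIP libraries lay close together, and the lowest exceeded the higher input by 2.27 to 2.54 (log2). The inputs held 8 counts or fewer for each, so the size of the difference is loosely set.

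SMTN, an actin-binding protein, had more counts, with 7.08 and 6.21 scaled CPM in the inputs and 65.7, 47.3 and 31.1 in PSF-RIP (2.83, adjusted p = 2.9e-04). MYO18A, an unconventional myosin, measured 9.65 and 9.77 against 55.7, 52.1 and 41.1 (2.35), and PRPF6, which bridges the snRNPs of the spliceosome, measured 8.36 and 7.99 against 48.6, 39.5 and 37.6 (2.35). The inputs agreed closely for both and the PSF-RIP libraries did not come near them. EML3, a microtubule-binding protein, the lysosomal sulfatase ARSA, the adaptor SHC2 and the myosin MYH14 completed the 10 protein-coding mRNAs with the widest gap (2.94, 3.54, 2.95 and 2.40), each with 4 counts or fewer in either input. ARSA, MIB2, MYO18A, PRPF6, SCRIB, SMTN and TCIRG1 kept their call without each library in turn, EML3 and SHC2 lost it without input B, and MYH14 without either input.

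**Figure D4:**
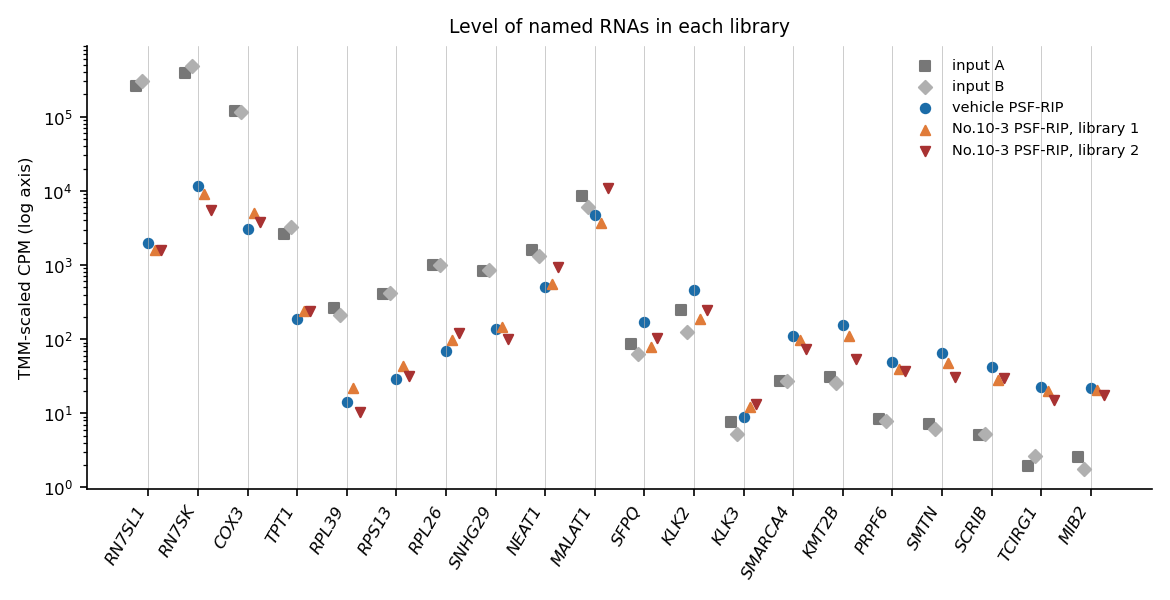
Scaled CPM (log axis) of 20 named RNAs in each of the 5 libraries, 1 marker per library. RNAs at left, from RN7SL1 to SNHG29, sit lower in all 3 PSF-RIP libraries than in both inputs, NEAT1 to KLK3 are not called, and SMARCA4 to MIB2 sit higher, on the TMM scale.

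Chromatin regulators were called higher more often than lower. In a list of 40 chromatin regulators with long mRNAs, 11 were higher (27.5%, against 10.0% of all genes) and 0 lower, with a median log2 fold change of 0.61. Of these 40, 0 were below input at an unadjusted p under 0.05, and DESeq2 called 12 higher and 0 lower. KMT2B, a histone methyltransferase, measured 30.9 and 25.7 scaled CPM in the inputs and 155, 111 and 54.8 in PSF-RIP (1.91, SE 0.44, adjusted p = 0.0046). SETD1A, of the same enzyme family, and MED12, of the Mediator complex, gave 1.75 and 1.71. For KMT2B the PSF-RIP libraries spread widely, with the second No.10-3 library lowest, and all were above both inputs. Without input A, 1 of the 40 was called, and without input B 0, against 9, 5 and 17 without the vehicle library, No.10-3 library 1 and No.10-3 library 2.

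Of 50 core spliceosome mRNAs, 11 were higher (22%, against 10.0% of all genes) and 6 lower (12%, against 10.4%). Besides PRPF6, the U2 snRNP protein SNRPA1 was higher (2.1, from 2 counts in each input). Lower were the Sm protein SNRPG, with 20.6 and 34.6 scaled CPM in the inputs against 5.24, 6.28 and 6.34 (-2.19), and BCAS2, of the Prp19 complex (-1.97). Without input A the counts were 1 higher and 4 lower, and without input B 1 and 0. Of 39 nuclear pore and RNA export mRNAs, 6 were higher (15.4%) and 2 lower (5.13%). NXF1, the main export receptor of mRNA, measured 56.6 and 34.6 scaled CPM in the inputs and 179, 121 and 92.7 in PSF-RIP (1.51, adjusted p = 0.012). THOC6 and NUP85 were higher too (1.84 and 1.56) and THOC7 lower (-1.98). None of these 39 was called in either direction without input B, and without input A 3 were higher and 1 lower.

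Splicing regulators and RNA-processing factors gave calls in both directions. Of 30 SR proteins and CLK kinases, 3 were higher (10%, against 10.0% of all genes) and 0 lower. The 3 were RSRP1, ARGLU1 and CLK3 (1.77, 1.43 and 1.21). RSRP1 measured 11.6 and 14.2 scaled CPM in the inputs and 64.1, 36.9 and 30.0 in PSF-RIP. In the list of 46 RNA processing and decay mRNAs, 7 were higher (15.2%), with EXOSC4 of the exosome at 1.77 and CPSF1 of the cleavage complex at 1.76. There 3 were lower, CNOT7 and CNOT4 of the deadenylase complex (-2.30 and -1.59) and DCP2 (-1.20, named after its value was seen). CNOT7 was at 213 and 215 scaled CPM in the inputs and at 33.6, 41.0 and 54.9 in PSF-RIP. Of 27 hnRNP mRNAs, HNRNPUL2 and RALY were higher (1.29 and 1.04) and PCBP2 and PTBP3 lower (-2.16 and -1.45). That was 7.41% in each direction, under the shares of all genes. RSRP1, ARGLU1, CLK3, HNRNPUL2, RALY and EXOSC4 lost their call without either input, so that 0 SR protein and CLK mRNAs were called there.

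**Figure D5:**
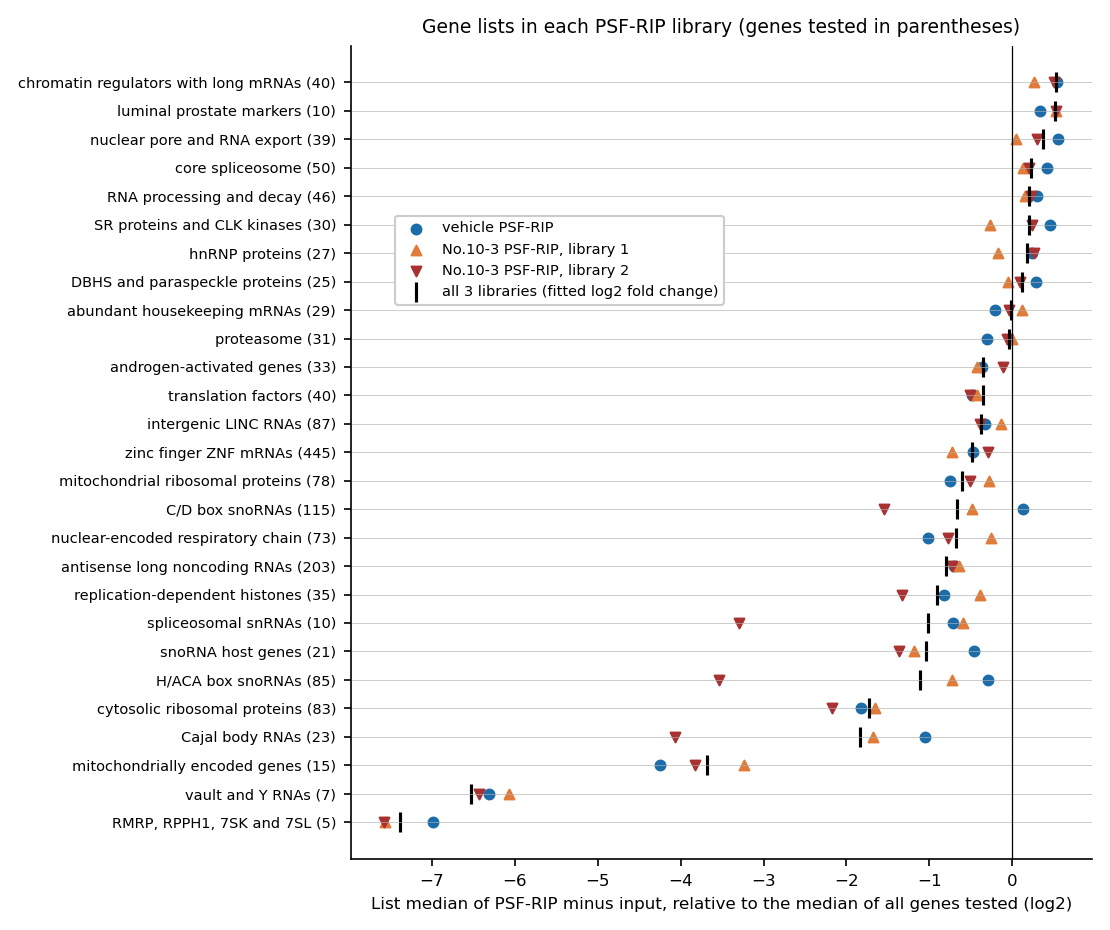
Median difference of PSF-RIP from input for 27 gene lists, relative to the median of all genes tested (log2, horizontal axis), with 1 marker per PSF-RIP library and a bar for the fit over all 3. The 3 libraries lie close for most mRNA lists, and for snRNA, H/ACA, C/D and Cajal body RNAs the second No.10-3 library lies far below the others. On total counts the median of all genes is 2.42 (log2), so most of these lists stand above 0 on that scale.

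Among long noncoding RNAs, lower calls far outnumbered higher calls. Of 548 tested, 96 were called lower (17.5%, against 10.4% of all genes) and 3 higher (0.55%, against 10.0%). The median log2 fold change was -0.61. Antisense RNAs gave 35 lower of 203 (17.2%) and 0 higher (6 at an unadjusted p under 0.05, 0 by DESeq2), and intergenic LINC RNAs 12 lower of 87 (13.8%) and 1 higher. Without each library in turn, the lower calls among long noncoding RNAs ranged from 43 without input B and 58 without input A to 113 without No.10-3 library 2. On total counts alone 363 were called higher and 2 lower. Whether counting used the strand is not given in the sources used here, so an antisense RNA and its overlapping partner cannot be told apart.

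Hosts of snoRNAs, which release the snoRNA from an intron and whose spliced RNA often carries a TOP start, were prominent among these. SNHG29 measured 837 and 864 scaled CPM in the inputs and 135, 148 and 99.2 in PSF-RIP (log2 fold change -2.74, SE 0.39, adjusted p = 3.8e-05), and SNHG3 measured 228 and 186 against 45.7, 49.9 and 37.1 (-2.23). The PSF-RIP libraries were tight around a level well below both inputs. In the list of 21 snoRNA hosts, 9 were called lower (42.9%) and 0 higher by edgeR and by DESeq2, with 0 above input at an unadjusted p under 0.05. There SNHG16, SNHG8 and DANCR gave -1.95, -1.84 and -1.70. The count was 6 without input A and 7 without input B.

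Among long noncoding RNAs averaging 10 CPM or more, the others with the widest gap between groups were PRR34-AS1, ZNF674-AS1, ZBED5-AS1 and OTUD6B-AS1 (-2.28, -2.25, -2.21 and -2.55). PRR34-AS1 stood at 43.1 and 39.1 scaled CPM in the inputs and at 7.62, 8.50 and 9.08 in PSF-RIP. OIP5-AS1, a widely expressed long noncoding RNA, measured 59.2 and 74.6 against 16.2, 17.4 and 24.2 (-1.78, adjusted p = 0.0015). LINC00324 and LINC00844, the latter enriched in prostate, were lower from few counts (-3.48 and -3.66), with 2, 5 and 11 PSF-RIP counts for LINC00324 and 1, 1 and 5 for LINC00844. Higher were LINC00898, with 5.79 and 7.99 scaled CPM in the inputs and 22.9, 27.3 and 18.2 in PSF-RIP (1.73, adjusted p = 0.013), MIRLET7BHG, the host of let-7b (1.44), and LOC642846, named after its value was seen. LINC00898 lost its call without either input and MIRLET7BHG without input B, the vehicle library or No.10-3 library 1.

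The RNAs of the nuclear bodies near PSF were not called. NEAT1, the scaffold of paraspeckles, measured 1589 and 1327 scaled CPM in the inputs and 512, 548 and 950 in PSF-RIP (log2 fold change -1.12, SE 0.42, adjusted p = 0.057). Every PSF-RIP library was below both inputs, the second No.10-3 library least so. The length given for this NEAT1 entry is 3735 bases. Shorter and longer forms of NEAT1 were not told apart, so recovery of the form that builds paraspeckles was not measured. MALAT1, a nuclear speckle RNA, measured 8503 and 6106 against 4686, 3713 and 10960 (-0.18, SE 0.51, adjusted p = 0.83), so its highest and lowest values were both in PSF-RIP. Relative to all counts the direction turned for both, with NEAT1 at 616 and 485 CPM in the inputs and 985, 977 and 1956 in PSF-RIP, and MALAT1 at 3296 and 2231 against 9020.2, 6615 and 22566. CTBP1-AS measured 9.0 and 16.9 scaled CPM in the inputs and 31.0, 16.6 and 17.4 in PSF-RIP (0.77, adjusted p = 0.22), with 14 and 19 counts in the inputs, and the groups overlapped. CTBP1, the corepressor gene it opposes, read 0.94 (adjusted p = 0.080).

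The mRNAs of PSF and its DBHS partners were not called. SFPQ measured 85.5 and 63.9 scaled CPM in the inputs and 169, 78.7 and 104 in PSF-RIP (log2 fold change 0.64, SE 0.39, adjusted p = 0.24), with the vehicle library highest and No.10-3 library 1 below input A. NONO measured 156 and 138 against 208, 140 and 160 (0.20, adjusted p = 0.72), and PSPC1 11.6 and 9.77 against 29.8, 17.7 and 17.2 (1.003, adjusted p = 0.11). Of 25 DBHS and paraspeckle protein mRNAs, 1 was called higher (4%) and 0 lower, under the shares of all genes (10.0% and 10.4%). The 1 called was SMARCA4, the ATPase of a chromatin remodeller found in paraspeckles (1.78). SMARCA4 stood at 27.7 and 27.5 scaled CPM in the inputs and at 112, 98.3 and 74.4 in PSF-RIP (SE 0.39, adjusted p = 0.0032), and lost its call without either input.

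Markers of the labelled cell type were present in every library. The 10 luminal prostate markers summed to 694 and 724 CPM of all counts in the inputs and to 3300, 3477 and 3972 in PSF-RIP, and all 10 were tested. KLK3, which encodes prostate-specific antigen, measured 7.72 and 5.33 scaled CPM in the inputs and 8.81, 12.2 and 13.3 in PSF-RIP (log2 fold change 0.78, adjusted p = 0.26), and KLK2 244 and 123.4 against 464, 189 and 247 (0.70, adjusted p = 0.25). KLK3 was above both inputs in all 3 libraries and KLK2 overlapped. The luminal keratin KRT18 was the marker called (1.24, adjusted p = 0.024), with 27 and 39.1 scaled CPM against 62.1, 94.6 and 76.9, and it lost the call without either input or No.10-3 library 1. KRT8, HOXB13, TMPRSS2, EPCAM and FOXA1 were not called (0.73, 0.58, 0.56, 0.47 and 0.11). Of 33 androgen-activated mRNAs tested, EAF2 and TPD52 were lower (-1.81 and -1.27) and 0 higher. That lower share was 6.06%, against 10.4% of all genes.

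Basal, erythroid and immune markers were scarce, and neuroendocrine and stromal markers were not all so. The neuroendocrine marker ENO2 measured 34.7 and 30.2 scaled CPM in the inputs and 75.7, 48.4 and 46.7 in PSF-RIP, above KLK3 in every library. Basal markers, 0 of 4 tested, summed to 0 CPM of all counts in both inputs and to 0.46, 1.32 and 1.19 in PSF-RIP, and the 2 erythroid markers were at 0 in all libraries. Immune markers summed to 0.75 and 0.65 CPM in the inputs and to 4.58 to 8.31 in PSF-RIP, all from CD68, with 3 of 4 at 0. Neuroendocrine markers summed to 14.7 and 14.3 CPM in the inputs and to 94.8 to 153 in PSF-RIP, with 3 of 6 at 0 and ENO2 and SYP, the members tested, not called (0.81 and -0.46). Stromal markers summed to 10.7 and 9.73 CPM in the inputs and to 84.9 to 121 in PSF-RIP, with 2 of 6 at 0. COL1A1 was called higher among them, with 9.65 and 5.33 scaled CPM against 39.1, 28.4 and 24.4 (1.99, adjusted p = 0.005), and lost the call without input B.

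Messages of growth, stress and housekeeping were mixed, and most of their shares called lay near or under those of all genes (10.0% higher and 10.4% lower). Cell cycle mRNAs gave 6.98% higher and 4.65% lower, DNA repair mRNAs 5.26% and 7.89%, and heat shock and NRF2 mRNAs 0% and 17.4%. Among 43 cell cycle mRNAs, MCM3, PLK1 and MCM7 were higher (2.2, 1.42 and 1.27, the last named after its value was seen) and CDK1 and UBE2C lower (-1.84 and -1.70). CDK1, the mitotic kinase, measured 87.5 and 51.5 scaled CPM in the inputs and 22.4, 13.7 and 21.9 in PSF-RIP. Of 38 DNA repair mRNAs, TP53BP1 was higher (1.13), as was LIG3 (1.07, named after its value was seen), and BARD1, NBN and RAD51C were lower (-2.07, -1.30 and -1.21). BARD1, a ubiquitin ligase subunit in DNA repair, read 74.6 and 74.6 scaled CPM in the inputs and 18.3, 8.87 and 24.9 in PSF-RIP, the inputs level and every PSF-RIP library well below. The ferritin mRNAs FTL and FTH1, which encode the iron store, were lower (-2.26 and -1.70), as were SLC7A11 and HSPE1, among 23 heat shock and NRF2 mRNAs with 4 lower and 0 higher calls. FTL measured 2113 and 2276 scaled CPM in the inputs and 484, 639 and 252 in PSF-RIP. Without input B, 0 mRNAs of these 3 lists were higher, and 2 cell cycle, 1 DNA repair and 2 heat shock and NRF2 mRNAs were lower. Without input A, 0 were higher, and 0, 1 and 2 were lower, with CDK1 and UBE2C losing their calls.

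In the list of 24 cholesterol synthesis mRNAs, 4 were higher, led by MVD (2.78, from 1 and 3 input counts), and 3 lower, MSMO1, SC5D and STARD4 (-1.57, -1.54 and -1.42). Of 27 p53 targets, PHLDA3 was higher (1.6) and 4 were lower, led by CCNG1 (-1.95), and of 25 unfolded protein response mRNAs CRELD2 was higher (1.56) and DNAJB9 and SEL1L lower (-1.72 and -1.18). Secreted and endoplasmic reticulum mRNAs gave 1 higher and 5 lower of 32, with AGR2 at -2.18 and SSR3 at -1.78. Among 29 abundant housekeeping mRNAs, 4 were lower, among them B2M, YWHAZ and PPIA (-1.62, -1.18 and -1.11), and 0 higher. Of 18 immediate early mRNAs tested 0 were called by edgeR or DESeq2, with 3 above input at an unadjusted p under 0.05. Of 31 proteasome mRNAs PSMD2 and PSMD3 were higher (1.42 and 1.15) and PSMA2 lower (-1.33). As shares called higher and lower, cholesterol synthesis gave 16.7% and 12.5%, p53 targets 3.7% and 14.8%, and the unfolded protein response 4% and 8%. Secreted mRNAs gave 3.12% and 15.6%, housekeeping mRNAs 0% and 13.8%, and proteasome mRNAs 6.45% and 3.23%. All genes gave 10.0% and 10.4%, and most of these shares lay near or under that. Without input B the calls were 1 higher and 0 lower for cholesterol synthesis, 0 and 1 for p53 targets and for secreted mRNAs, and 0 in both directions for unfolded protein response, housekeeping and proteasome mRNAs. Without input A they were 1 and 1 for cholesterol synthesis and for the unfolded protein response, 0 and 2 for p53 targets, 0 and 6 for secreted mRNAs, and 0 and 1 for housekeeping and for proteasome mRNAs.

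Zinc finger mRNAs of the ZNF family were called lower more often than higher. Of 445 ZNF mRNAs, 58 were lower (13%, against 10.4% of all genes) and 23 higher (5.17%, against 10.0%), with a median of -0.40. ZNF883 measured 57.9 and 67.5 scaled CPM in the inputs and 6.67, 8.13 and 21.5 in PSF-RIP (-2.32), and ZNF219 went the other way with 3.86 and 2.66 against 31.7, 26.2 and 12.3 (2.78, adjusted p = 0.002). Without No.10-3 library 2, 134 ZNF mRNAs were lower and 50 higher, and without input A 16 and 5. Of 35 replication-dependent histone mRNAs, which end in a stem-loop in place of a poly(A) tail, 3 were lower (8.57%, under the share of all genes), H2BC7, H2AC15 and H2BC4 (-1.65, -1.39 and -1.32), each losing its call in 2 or more of the fits without 1 library. Histone genes are close copies of each other, so the division of reads among them is uncertain.

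Transcribed pseudogenes gave few calls in either direction, with 11 higher (3.89%) and 12 lower (4.24%) of 283 tested and a median of 0.25. GOLGA2P5 was among the higher (3.07, from 2 and 0 input counts) and CCZ1P-OR7E38P among the lower, at 34.7 and 36.4 scaled CPM in the inputs against 10.7, 8.50 and 6.78 (-2.04). Reads of a pseudogene and its parent cannot be told apart where they are alike. Among 22 microRNA loci tested, MIRLET7BHG was higher and MIR4458HG and MIR141 lower (-1.97 and -2.60), with 12 and 7 counts of MIR141 in the inputs and 5, 2 and 9 in PSF-RIP.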

How the data were processed

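Per the submitters' processing notes, TopHat2 2.1.0, Bowtie2 2.2.6, Bowtie and hg19 were used, with no roles given. The authors deposited 1 table with a whole-number read count per Entrez gene and library, taken as raw counts, plus a gene length and FPKM. Per the labels' protocols, a RIP kit and a stranded TruSeq kit were used. No source used here gives the counting tool, its strand setting or its treatment of multiply mapped reads. The 5 FPKM columns were not used.

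Genes with a mean CPM of at least 1 over the 5 libraries were scaled with TMM factors and tested with edgeR 4.0.16 (R 4.3.3; glmQLFit and glmQLFTest, PSF-RIP against input, 3 residual degrees of freedom), with Benjamini-Hochberg adjustment over 13321 genes at 0.05. The test shares variance between genes, with a median prior of 22.9 degrees of freedom beside the 3 residual. Log2 differences of single libraries used a prior count of 2. SE is the log2 fold change divided by the square root of F. DESeq2 1.42.0, other scalings, filters, treatments taken alone, a gene length offset, a 1.5-fold test and leaving out each library were run as alternatives, and the test was tried on simulated data. Genes without a symbol (1962, 0.110% to 0.504% of counts) were kept. RNA classes came from RefSeq (GRCh38.p14) by Entrez ID for 23696 genes, and promoter windows from the same source.

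Named genes were the protein-coding, long noncoding, small RNA and pseudogene calls with the widest gap between groups (for protein-coding and long noncoding RNAs, among those averaging 10 CPM or more), up to 4 members of each list with the largest called fold change, and fixed genes such as SFPQ, NEAT1 and KLK3. Some items are not reported here. The members and lists were chosen with earlier results of these data known, so list counts stand beside those of all genes with no list test.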

Additional observations from a re-analysis of the deposited data

How the results depend on the processing

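The counts of called genes moved within 1.5 times under DESeq2, the other scalings, both filters and the length offset, except where given here. On total counts alone 11611 genes were higher and 49 lower, with 8586 at least 2-fold above and 31 below both inputs. With the vehicle PSF-RIP library alone the counts were 2452 and 2491, with 2012 and 2051 at least 2-fold apart, and with the No.10-3 libraries alone 638 and 869. Removing the length trend left 361 genes at least 2-fold above, and testing against a 1.5-fold difference left 424 higher and 711 lower. Fits without 1 library gave 88 to 2423 genes higher and 528 to 2431 lower, with 642 to 1829 at least 2-fold above and 701 to 1348 below. A lone input or vehicle library was assumed to vary like the others. The cause of these shifts was not tested, beyond the fewer samples of such fits.

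Of the named genes, 8 of 48 called higher and 48 of 80 called lower kept the call without each library in turn, and 39 and 25 lost it without input B. Relative to the median gene, 7 uncalled genes changed sign under an alternative. FOXA1 read -0.053 with no filter on low counts, -0.0077 with a mean CPM of at least 5, -0.129 with the vehicle library alone, -0.111 with the length trend removed, and -0.172 to 0.185 over the fits without 1 library. EPCAM read -0.389 and HOXB13 -0.022 with the vehicle library alone, and EPCAM ranged from -0.0090 to 0.678 without 1 library. NONO read -0.055 with the No.10-3 libraries alone, -0.0056 with the length trend removed, and -0.055 to 0.236 without 1 library. MALAT1 ranged from -0.845 to 0.0082 and SYP from -1.26 to 0.406 without 1 library. RNU5A-1 read 0.424 with the length trend removed, a trend fitted on protein-coding genes and not on small RNAs. The cause was not tested. No paired analysis was possible because the input columns could not be matched to treatments. The median gene had 16 and 23 counts in the inputs, which limits the precision of single genes.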
